A study of Mus musculus with 12 samples.

Results

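The comparison set the 3 libraries of cells given hemin, IL-10 and stattic against the 3 libraries of cells given hemin alone, 6 of the 12 libraries of the series, chosen by their titles and described across all genes. All libraries came from wild-type mouse primary oligodendrocyte progenitor cells of the brain, cultured for 12 h with the agents. The hemin group received 50 µM hemin. The group called the stattic group here received hemin at the same 50 µM together with IL-10 at 10 ng/mL and stattic at 2.5 µM. The other groups, vehicle and 50 µM hemin with 10 ng/mL IL-10, had 3 libraries each. They entered the filter on low counts, the scaling and the estimate of the spread, and for some genes their values are set beside the comparison. Per the labels, vehicle was DMSO. Whether the replicates were separate cultures or animals is not stated, so the p-values rest on a spread between libraries that may be technical.

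Oligodendrocyte progenitor cells are dividing glial precursors that mature into myelinating oligodendrocytes. Hemin is the oxidised form of heme, which is released from haemoglobin after bleeding and is handled by heme oxygenase. IL-10 is a cytokine whose receptor, built from IL10RA and IL10RB, activates the kinases JAK1 and TYK2 and through them the transcription factor STAT3, and SOCS3 is a STAT3 target that feeds back on cytokine receptors. Stattic is a small-molecule inhibitor of STAT3. In log2 units the comparison is the sum of adding IL-10 to hemin and adding stattic to both, and the hemin with IL-10 group lies between these steps. No group received hemin and stattic without IL-10, so stattic without IL-10 was not measured.

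The 6 libraries held between 9404448 and 10266653 expected counts, and 13967 of the 18876 genes listed in any library passed the filter on low counts and were tested. The filter used all 12 libraries, and with only the 6 compared 13600 genes passed. Stattic replicate 3 stood apart from the other libraries. Genes were put into 5 bins by transcript length, and each library was compared with the vehicle mean. In stattic replicate 3 the median log2 difference from vehicle was 1.13 in the bin of shortest transcripts and -0.86 in the bin of longest. In stattic replicates 1 and 2 the same values were 0.13 and 0.27 for short and -0.14 and -0.13 for long transcripts. Hemin replicate 1 had the next steepest trend, at 0.47 and -0.46. Ribosomal protein symbols took 9.76% of the counts of stattic replicate 3 and 3.92% to 5.84% of the counts of the other 5 libraries compared. The median SD of a gene's log2 CPM (counts scaled to library size) was 0.55 over the 3 stattic libraries, 0.32 over stattic replicates 1 and 2, and 0.32 over the 3 hemin libraries.

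**Figure D1:**
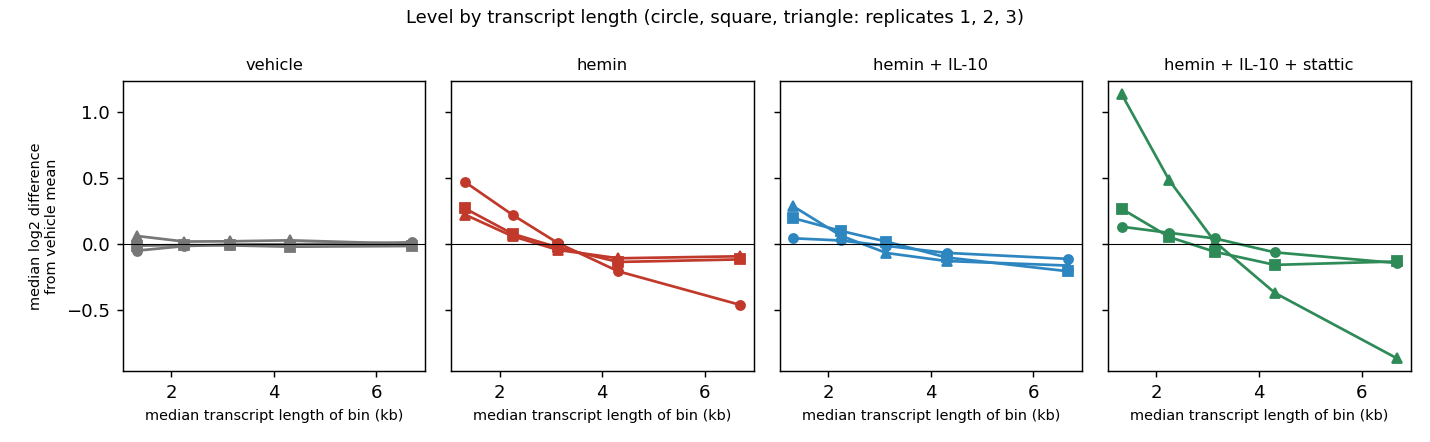
Median log2 difference of each library from the vehicle mean (vertical axis) over 5 bins of transcript length (horizontal axis, median length of the bin in kb), 1 panel per group and 1 line per library. Stattic replicate 3 runs from 1.13 to -0.86, steeper than every other line.

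The cells were checked against markers of the labelled type and of other cells. All 26 listed progenitor markers and lineage factors had counts in each of the 6 libraries, and their summed level was 3135, 3867 and 5424 CPM in hemin replicates 1 to 3 and 2492, 2205 and 3150 CPM in the stattic replicates (marker sums are CPM of the library total). Of 15 astrocyte markers only Gjb6 was at 0 in any library, and they summed to 3682, 2548 and 3056 CPM with hemin and 4512, 1364 and 2386 CPM with stattic. Of 19 microglia and macrophage markers none was at 0, and they summed to 305, 138 and 108 CPM with hemin and 132, 287 and 131 CPM with stattic. Of 16 endothelial, mural cell and fibroblast markers 0 or 1 was at 0, Cldn5 in hemin replicates 2 and 3 and stattic replicates 1 and 2, and the sums were 487, 147 and 183 CPM against 99.9, 86.0 and 189 CPM. The 17 neuron markers summed to 1252 to 1593 CPM with hemin and 758 to 1608 CPM with stattic. Hemin replicate 1 thus had the highest sums of the microglial list and of the endothelial, mural cell and fibroblast list. Single markers did not all follow their sums. On the same scale Col3a1 had 204, 22.1 and 24.5 CPM in hemin replicates 1 to 3. The endothelial marker Pecam1 had 11.5, 24.9 and 30.6 CPM there. Cspg4, which also marks progenitors, had 53.1 CPM in stattic replicate 3. Stattic replicate 2 had the lowest astrocyte sum but not the lowest Gfap. Gfap had 655, 167 and 76.1 CPM with hemin and 1501, 591 and 63.7 CPM with stattic. In such bulk samples, fewer cells of a type and less RNA per cell cannot be told apart.

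No gene passed the main test, which had no replicate block, in either direction. With the replicate number as a block 1 gene, Dlk1, was called higher and 0 lower. With edgeR's quasi-likelihood test and Benjamini-Hochberg adjustment at 0.05, 0 of 13967 genes were called higher in the stattic group (0.0%) and 0 were called lower (0.0%). At an unadjusted p under 0.05 there were 253 genes with higher fitted values (1.81% of those tested) and 228 with lower (1.63%), 481 in all, and with the replicate block there were 742. In 407 genes (2.91%) all 3 stattic libraries lay above all 3 hemin libraries, and in 314 (2.25%) all lay below. DESeq2 called 1 gene higher and 0 lower, and limma-voom and limma on log2 FPKM called 0 in each direction. The same fit over the same libraries called 2917 genes between hemin and vehicle, 0 between hemin with IL-10 and hemin, and 0 between the groups with and without stattic. Without stattic replicate 3, 0 genes were called, 414 of 14260 genes had an unadjusted p under 0.05 with higher values (2.9%) and 693 with lower values (4.86%).

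The precision of the fit sets what could have been seen. The median standard error (SE) of a log2 change was 0.35 and the median half-width of the 95% confidence interval (CI) was 0.75. In 47.3% of genes the whole CI lay within 1 log2 unit of no change, and in the other genes a change of 1 log2 unit or more lay inside the CI. The fitted change was at least 1 log2 unit higher in 213 genes and at least 1 lower in 281. The median change over all genes was 0.04 with the main scaling, which used the trimmed mean of M values, -0.08 with library totals and -0.11 on the log2(FPKM + 0.1) scale. The median change by length bin ran from 0.29 for short transcripts to -0.11 for long ones, and from -0.07 to 0.09 without stattic replicate 3.

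**Figure D2:**
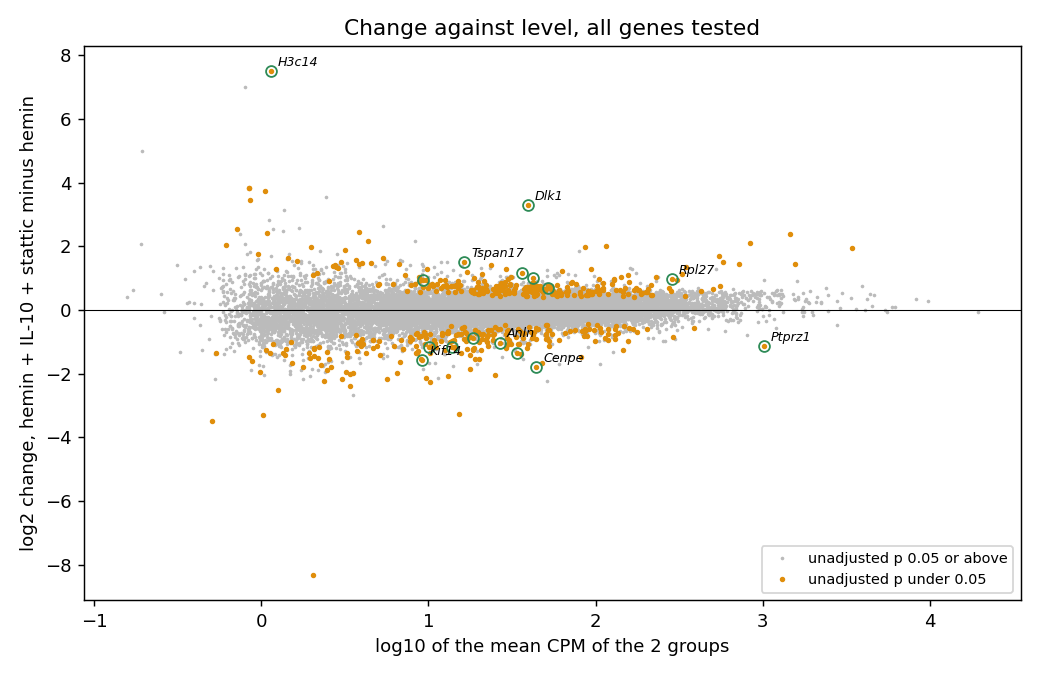
Log2 change of hemin, IL-10 and stattic minus hemin (vertical axis) against log10 of the mean CPM of both groups (horizontal axis) for the 13967 genes tested. Orange points are the 481 genes with an unadjusted p under 0.05, and green circles mark the 16 genes with the smallest p, of which Dlk1 lies at 3.30.

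Dlk1 had the smallest p of all genes, and the next smallest adjusted p was 1.00 by edgeR. It encodes a membrane protein with EGF-like repeats that is related to Notch ligands and is known for holding precursor cells, such as preadipocytes, in an immature state. Dlk1 stood at 8.82, 7.07 and 5.81 CPM in hemin replicates 1 to 3. It stood at 39.9, 95.1 and 78.9 CPM in stattic replicates 1 to 3. Every stattic library was above every hemin library. The vehicle libraries had 47.8, 72.9 and 109 CPM and the hemin with IL-10 libraries 44.5, 67.0 and 96.2 CPM, so the hemin libraries were the lowest of the 12. The means were 7.24 ± 1.51 CPM for hemin and 71.3 ± 28.4 CPM for the stattic group (SD, n = 3 each).

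The fitted log2 change of Dlk1 was 3.30 (SE 0.43, 95% CI 2.37 to 4.22), which is 9.84-fold. Its adjusted p was 0.0655 by edgeR, above the threshold. Same-numbered libraries of the groups deviated together, as did some with different numbers. With the replicate number as a block over all 12 libraries the log2 change of Dlk1 was 3.17 and the adjusted p 0.0259 by edgeR. With the block on the 6 libraries compared alone they were 3.21 and 0.3996. Dlk1 was below the threshold in 5 of 19 alternative analyses, and the adjusted p ran from 6.207e-11 with DESeq2 to 0.866 without hemin replicate 3. The log2 change itself ran from 2.83 to 3.58 over the 19. Without stattic replicate 3 it was 3.23 (adjusted p = 0.184 by edgeR), and without stattic replicate 1 it was 3.58 (adjusted p = 0.0189 by edgeR). The changes that make up or adjoin this one were 3.26 for hemin with IL-10 against hemin (adjusted p = 0.0735), 0.04 for adding stattic to both (adjusted p = 0.988) and -3.40 for hemin against vehicle (adjusted p = 0.000586), all by edgeR and all sharing libraries.

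The promoter of Dlk1 is shown beside that of Socs3, the STAT3 target named above, because stattic acts on STAT3. Both sequences are the 250 bases before the gene's start in RefSeq, build GRCm38.p6, read 5′ to 3′ on the gene's strand. Capitals mark a match to the STAT motif TTCNNNGAA. The Dlk1 window is chr12:109452573-109452822 on the plus strand and the Socs3 window is chr11:117969367-117969616 on the minus strand.
Dlk1: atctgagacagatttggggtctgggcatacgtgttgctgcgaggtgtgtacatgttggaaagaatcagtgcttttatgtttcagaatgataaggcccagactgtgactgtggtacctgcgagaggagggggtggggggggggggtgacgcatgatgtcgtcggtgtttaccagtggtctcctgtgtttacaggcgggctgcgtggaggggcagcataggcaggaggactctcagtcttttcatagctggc
Socs3: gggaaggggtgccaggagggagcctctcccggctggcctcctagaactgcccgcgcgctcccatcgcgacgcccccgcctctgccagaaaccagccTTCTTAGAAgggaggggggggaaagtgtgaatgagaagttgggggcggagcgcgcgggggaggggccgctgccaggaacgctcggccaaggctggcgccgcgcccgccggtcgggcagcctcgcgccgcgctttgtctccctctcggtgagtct
The search covered these bases and the first 50 of the transcript, on both strands, for the STAT motif, the antioxidant response motif TGACNNNGC, the ATF4 motif TGATGNAAT and the heat shock motif. The Dlk1 window held none of the 4. The Socs3 window held 1 STAT match, TTCTTAGAA, starting 154 bases before the gene's start, and none of the other 3. Of 32851 RefSeq promoter windows of the same length, 8.30% held the STAT motif, 12.4% the antioxidant motif, 0.965% the ATF4 motif and 0.603% the heat shock motif. A match describes letters and not binding.

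**Figure D3:**
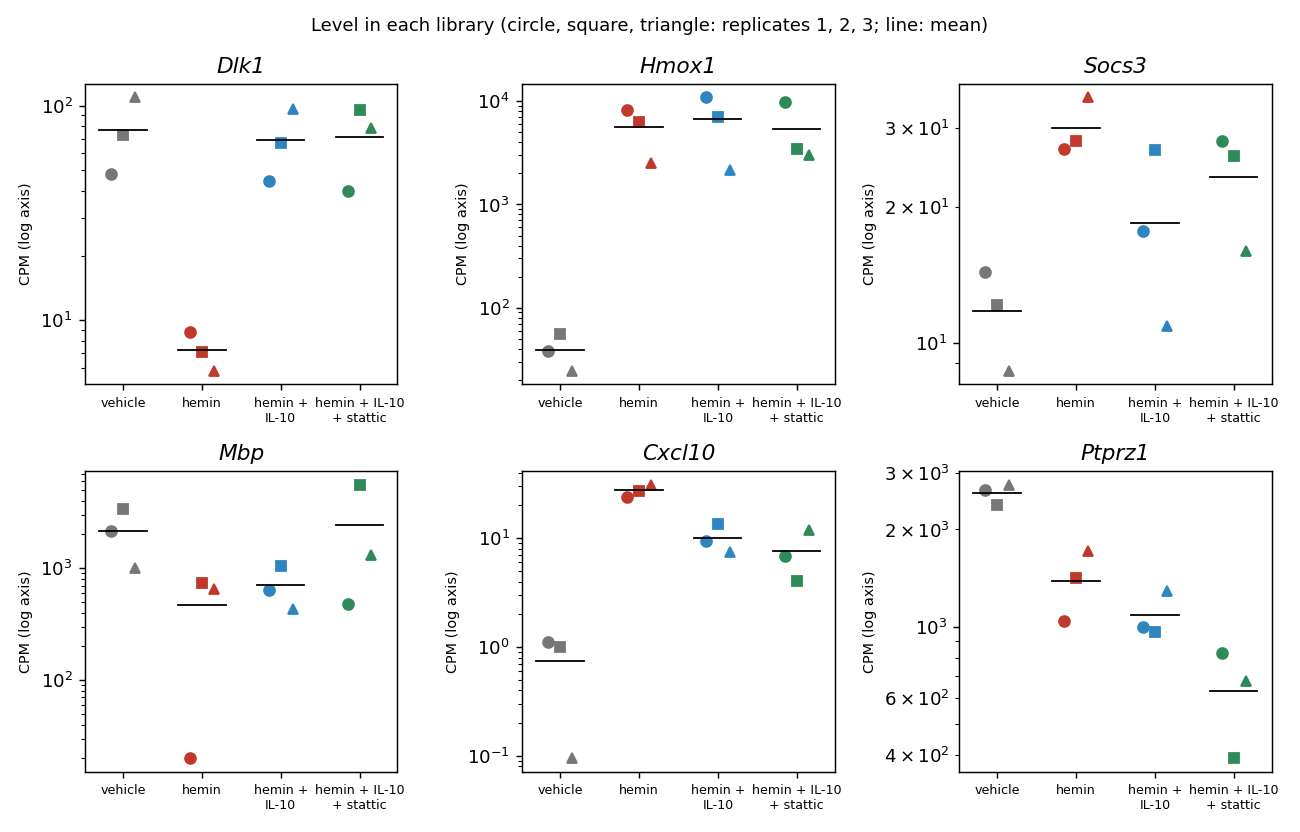
CPM of 6 genes in each of the 12 libraries (vertical log axis), with circles, squares and triangles for replicates 1, 2 and 3 and a line at the group mean. For Dlk1 the hemin libraries lie at 5.81 to 8.82 CPM and the other 9 libraries at 39.9 CPM or above, while for Hmox1 and Socs3 the hemin and stattic libraries overlap.

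No gene of the pathway that both agents act on passed the threshold, as was so for all 13967 genes tested. Of 12 tested genes of the IL-10 receptor, JAK and STAT list, 0 had an unadjusted p under 0.05. Over all genes 1.81% had one with higher values and 1.63% with lower values. The fitted change was below 0 in 11 of the 12 and in 6289 of all 13967. The list's median was -0.22 against 0.04 over all genes. Socs3 stood at 26.9, 28.0 and 35.1 CPM with hemin and at 28.1, 26.0 and 15.96 CPM with stattic, and the groups overlapped. Its log2 change was -0.36 (SE 0.34, 95% CI -1.10 to 0.38), so the interval excludes a doubling but includes a halving. The hemin with IL-10 libraries had 17.7, 26.7 and 10.9 CPM. The log2 change of Socs3 was -0.70 (SE 0.34) for adding IL-10 to hemin and 0.34 (SE 0.34) for adding stattic to both. Neither step was called. Stat3, the transcription factor itself, stood at 176, 210.2 and 298 CPM with hemin and 215, 185 and 185 CPM with stattic, a log2 change of -0.23 (95% CI -0.76 to 0.30). Il10ra, the chain that binds IL-10, was near the limit of counting at 2.97, 1.54 and 0.501 CPM against 1.26, 1.68 and 1.20 CPM. Il10rb, the shared second chain, had 6.35, 5.02 and 3.41 CPM against 4.61, 4.29 and 4.68 CPM. Jak1, the kinase on the receptor, had 192, 187 and 144 CPM against 224, 117 and 109 CPM. None of these genes separated the groups, where 2.91% of all genes did with higher and 2.25% with lower values.

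Genes known to be induced through STAT3 went both ways. Of 29 tested, 1 had an unadjusted p under 0.05 with higher values and 1 with lower values, beside 1.81% and 1.63% of all genes. The median change was -0.07 (-0.38 to -0.045 with 1 library left out). Gadd45g, a stress-response gene, had 102, 123 and 129 CPM with hemin and 165, 162 and 199.98 CPM with stattic, a log2 change of 0.57 (SE 0.25, adjusted p = 1.00). Lcn2, which encodes the iron-siderophore binding protein lipocalin 2, had 3.77, 1.84 and 0 CPM with hemin and 0.419, 0.105 and 0 CPM with stattic, too few counts to order the groups. Zfp36, Pim1 and Hif1a were lower in every stattic library than in every hemin library, 3 of the 29 beside 2.25% of all genes, with unadjusted p above 0.05. The 17 SOCS, PIAS and phosphatase inhibitors of cytokine signalling had a median of 0.08 and the 13 IL-6 family cytokines and receptors one of -0.01, with 0 genes at an unadjusted p under 0.05 in either. With 1 library left out these medians ran from -0.10 to 0.07 and from -0.43 to 0.36. These genes outside the always named set were chosen after their values were seen, as were the genes named from the lists below.

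Genes that answer heme gave no called difference between the groups. Hmox1, the heme oxygenase that breaks heme down, stood at 8208, 6294 and 2502 CPM with hemin and at 9896, 3436 and 3030 CPM with stattic, beside 24.5 to 55.0 CPM in vehicle. The log2 change was -0.06 with a wide interval (95% CI -1.43 to 1.32), and replicate 1 was the highest and replicate 3 the lowest library of both groups. Slc7a11, the cystine importer that feeds glutathione synthesis, varied the same way, at 767, 762 and 102 CPM against 1489, 368 and 89.8 CPM, with a log2 change of 0.26 (95% CI -1.84 to 2.35). Ftl1, the ferritin light chain, had 5195, 4139 and 2200 CPM against 6467, 5152 and 4444 CPM and overlapped. Hspa1a, the inducible HSP70 chaperone, had 2610, 8384 and 5040 CPM against 5963, 5799 and 4313 CPM, a log2 change of 0.00 (95% CI -0.88 to 0.89), while vehicle averaged 2.20 ± 0.42 CPM (SD, n = 3). For the lists of these genes the medians were 0.18 over 30 heme and iron genes, 0.08 over 29 NRF2 antioxidant targets, 0.15 over 24 ferroptosis regulators, 0.08 over 36 genes of the integrated stress response and 0.06 over 24 heat shock proteins. Among them 0 genes had higher values at an unadjusted p under 0.05, where 1.81% of all genes did. With lower values 1 gene did, where 1.63% of all genes did. It was Gclc, the catalytic subunit of the first enzyme of glutathione synthesis, at -0.58. These medians near 0 were not stable. With 1 library left out the NRF2 median ran from -0.65 without stattic replicate 1 to 0.49 without hemin replicate 1, and that of the integrated stress response from -0.24 without stattic replicate 1 to 0.33 without stattic replicate 3. The ferroptosis median ran from -0.12 to 0.28, that of heat shock proteins from -0.08 to 0.32 and that of heme and iron genes from 0.04 to 0.28.

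The 8 genes with the smallest p in the higher direction were Dlk1, Tspan17, Urm1, Ss18l2, H3c14, Rpl27, Slc27a4 and Fbxw17. Other than Dlk1, each had an adjusted p of 1.00 by edgeR. Transcripts of Ss18l2, H3c14 and Rpl27 were short, at 592, 664 and 734 bases, while Slc27a4 had the longest of the 8 at 4054. With offsets for transcript length the changes of Ss18l2 and Rpl27 were 0.88 and 0.70, and that of Slc27a4 was 0.75. Tspan17, Urm1 and Fbxw17 had 1.33, 0.89 and 0.89. Tspan17, a tetraspanin membrane protein, had 7.24, 7.69 and 10.7 CPM with hemin and 13.1, 32.8 and 26.5 CPM with stattic, a log2 change of 1.496 (SE 0.34). Urm1, a ubiquitin-like protein that donates sulfur to tRNA, had 30.2, 29.9 and 23.6 CPM against 34.4, 62.1 and 72.6 CPM, a change of 1.01 (SE 0.26). Stattic replicate 1 lay close to the hemin libraries in both genes. Slc27a4, a fatty acid transport protein, had 42.7, 40.3 and 35.6 CPM against 48.8, 75.9 and 67.0 CPM, a change of 0.69 (SE 0.20), and its vehicle libraries were the highest at 87.3 to 103 CPM. Rpl27, a protein of the large ribosomal subunit, had 267, 170.1 and 143 CPM against 298, 328 and 503 CPM, with stattic replicate 3 the highest. Ss18l2 and Fbxw17, an F-box protein, had changes of 1.17 (SE 0.32) and 0.95 (SE 0.27) without overlap. H3c14, a replication-dependent histone H3 gene, was at 0 in the 3 hemin libraries and at 1.47, 5.34 and 0 CPM in the stattic libraries, so the groups overlapped and its fitted fold is not a bound. H3c14 averaged 2.62 CPM in vehicle and 2.83 CPM in hemin with IL-10, and with only the 6 libraries compared it did not pass the filter on low counts. It belongs to a family of near-identical genes, among which reads may have been split.

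The 8 genes with the smallest p in the lower direction were Anln, Pcdh18, Kif14, Rfx4, Robo1, Cenpe, Sncaip and Ptprz1, each with an adjusted p of 1.00 by edgeR. Their transcripts ran from 3461 bases for Sncaip to 7813 for Robo1 and Cenpe, beside a median of 3138 over all genes. With offsets for transcript length all 8 changes were smaller. They were -0.88 for Anln, -1.04 for Pcdh18, -1.285 for Kif14 and -1.28 for Rfx4. For Robo1, Cenpe, Sncaip and Ptprz1 they were -0.72, -1.49, -1.15 and -0.88. Anln encodes anillin, a scaffold of the ring that divides cells, and had 30.6, 37.7 and 39.1 CPM with hemin and 17.6, 16.4 and 18.8 CPM with stattic, a log2 change of -1.02 (SE 0.23). Kif14, a mitotic kinesin, had 9.22, 14.5 and 17.4 CPM against 2.62, 5.03 and 6.12 CPM, a change of -1.58 (SE 0.41). Cenpe, a kinesin of the kinetochore, had 27.9, 83.0 and 95.3 CPM against 10.6, 28.8 and 20.0 CPM, a change of -1.79 (SE 0.48), with hemin replicate 1 inside the stattic range. Anln and Kif14 did not overlap between groups. Ptprz1, a receptor phosphatase abundant in progenitors, had 1042, 1412 and 1713 CPM against 829.8, 391 and 678 CPM, a change of -1.13 (SE 0.31), and its vehicle libraries had 2376 to 2754 CPM. Rfx4, a transcription factor of neural progenitors and astrocytes, had 43.3, 43.8 and 57.8 CPM against 19.4, 10.3 and 27.7 CPM. Robo1, a receptor for Slit guidance proteins, had 26.8, 26.2 and 18.9 CPM against 14.4, 12.8 and 11.8 CPM. Pcdh18, a protocadherin, and Sncaip, a partner of alpha-synuclein, were also lower in each stattic library than in each hemin library, with changes of -1.16 (SE 0.30) and -1.16 (SE 0.31). The steps that make up these changes differed between genes, and none was called. Adding IL-10 to hemin gave -0.08 for Anln and -1.33 for Sncaip, and adding stattic to both gave -0.94 and 0.17.

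**Figure D4:**
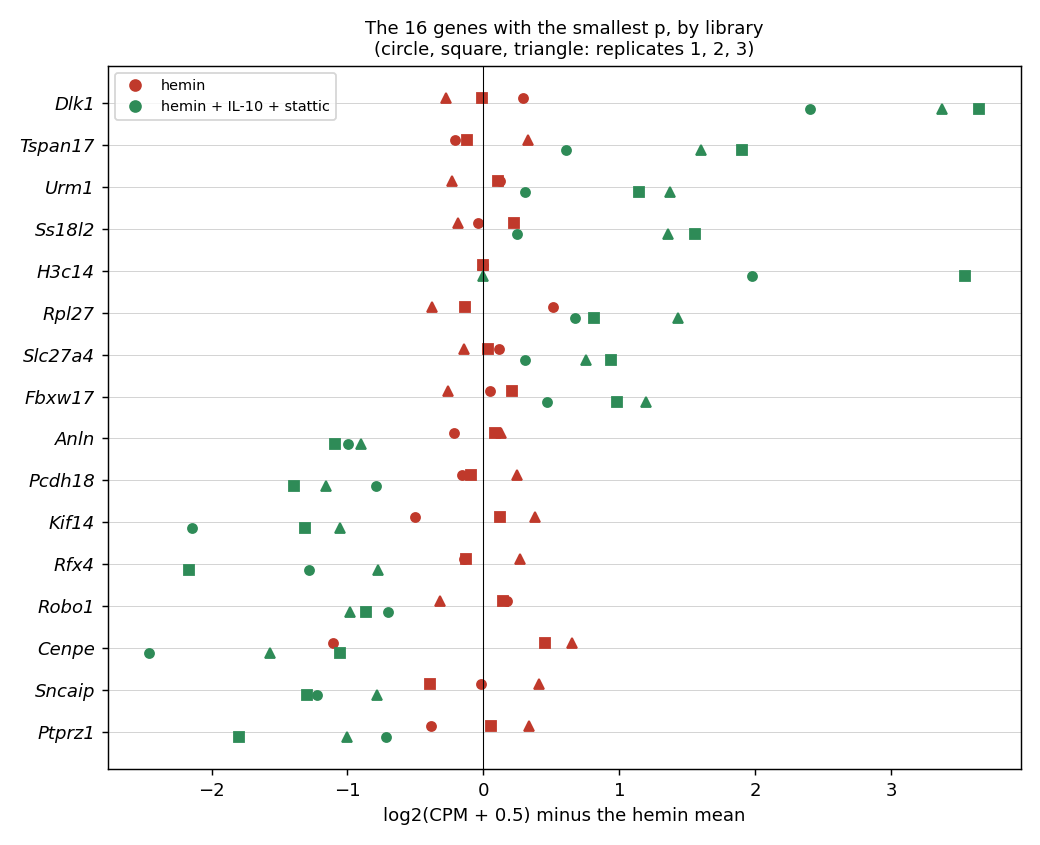
Difference of each library from the hemin mean on the log2(CPM + 0.5) scale (horizontal axis) for the 16 genes with the smallest p, 8 in each direction (rows), with hemin in red, the stattic group in green, and circles, squares and triangles for replicates 1, 2 and 3. Dlk1 lies farthest from hemin among genes without overlap, and H3c14 and Cenpe overlap.

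Myelin and differentiation genes had the highest median of the 40 lists, at 1.15 over 26 genes tested, and 24 of the 26 had fitted values above 0. Of the 26, 7 had an unadjusted p under 0.05 with higher values, where 1.81% of all genes did, and 0 were called. Sirt2, Plekhb1, Cnp, Cldn11, Mbp and Mag are among them. In 0 of the 26 did the groups separate without overlap, where 2.91% of all genes did with higher and 2.25% with lower values. Mbp, myelin basic protein, stood at 20.1, 732 and 657 CPM with hemin and 483, 5564 and 1304 CPM with stattic. Its log2 change was 2.38 with a wide interval (SE 1.06, 95% CI 0.07 to 4.69). Cnp, an enzyme of the myelin sheath, had 240.3, 394 and 535 CPM against 413, 1508 and 1252 CPM, and Sirt2, a deacetylase abundant in oligodendrocytes, had 452, 854 and 1185 CPM against 1027, 3305 and 2503 CPM.

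The libraries of each group differed widely in these genes. The whole list summed to 1956, 4262 and 6382 CPM with hemin and 4310.1, 19441 and 7605 CPM with stattic, so stattic replicate 2 was the highest and hemin replicate 1 the lowest. Against the hemin mean, the list's median was 0.09, 2.05 and 1.03 in stattic replicates 1 to 3. The list's median change was 1.22 without stattic replicate 3, 0.84 without that library and hemin replicate 1, and 0.52 without stattic replicate 2. Within each pair of libraries with the same number, the stattic library was the higher for the list's sum and for Mbp, Cnp and Sirt2, and with the replicate block the median change was 1.04. The same list summed to 12054, 12783 and 6868 CPM in vehicle and to 2045, 5543 and 5129 CPM in hemin with IL-10. Its median for hemin with IL-10 against hemin, which shares the hemin libraries, was -0.03. Stattic replicate 2 also had the lowest astrocyte marker sum given above, though not the lowest Gfap. Hemin replicate 1 had the highest endothelial, mural cell and fibroblast sum. The part of other cell types in the myelin values was not tested.

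Progenitor genes had a median of -0.21 over 26 genes, and -0.53 without stattic replicate 3, -0.043 without hemin replicate 3 and 0.10 without stattic replicate 2. Ptprz1 and Nfib, a transcription factor of glial precursors, had an unadjusted p under 0.05 with lower values, 2 of the 26 beside 1.63% of all genes. Pdgfra, the PDGF receptor that marks progenitors, had 95.4, 131 and 145 CPM with hemin and 22.0, 54.4 and 90.1 CPM with stattic without overlap, though the CI of its change included 0 (-1.16, 95% CI -2.67 to 0.35). Olig2, the lineage transcription factor, had 125, 54.3 and 47.7 CPM against 93.5, 23.1 and 73.9 CPM, a change of -0.25 (95% CI -1.27 to 0.76). Sox10, another lineage factor, had 42.8, 47.9 and 100.1 CPM against 30.6, 129.6 and 238 CPM. The progenitor genes thus did not move as 1 group.

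Cell division genes had a median of -0.36 over 47 genes, and 41 of the 47 had fitted values below 0. Cenpe, Cenpf, Kif11 and Mki67 had an unadjusted p under 0.05 with lower values, 4 of the 47 beside 1.63% of all genes. With higher values 0 of the 47 did, beside 1.81% of all genes. Mki67, a marker of cycling cells, had 86.7, 309.8 and 224 CPM with hemin and 41.3, 146 and 69.1 CPM with stattic. Cenpf, a kinetochore protein, had 27.7, 96.9 and 92.1 CPM against 11.3, 34.1 and 22.9 CPM. Stattic replicate 3 went apart from the other libraries of its group over the list. Its median against the hemin mean was 0.35, where stattic replicates 1 and 2 had -1.36 and -0.87. Without it the list's median was -1.05 and 27 of the 47 had an unadjusted p under 0.05 with lower values, where 4.86% of all genes did. Top2a, the topoisomerase of dividing cells, shows the split with 207, 293 and 307 CPM with hemin and 68.0, 99.8 and 268 CPM with stattic. The median was -0.13 without stattic replicate 1, -0.16 without stattic replicate 2, -0.60 with the replicate block and -0.39 with length offsets.

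**Figure D5:**
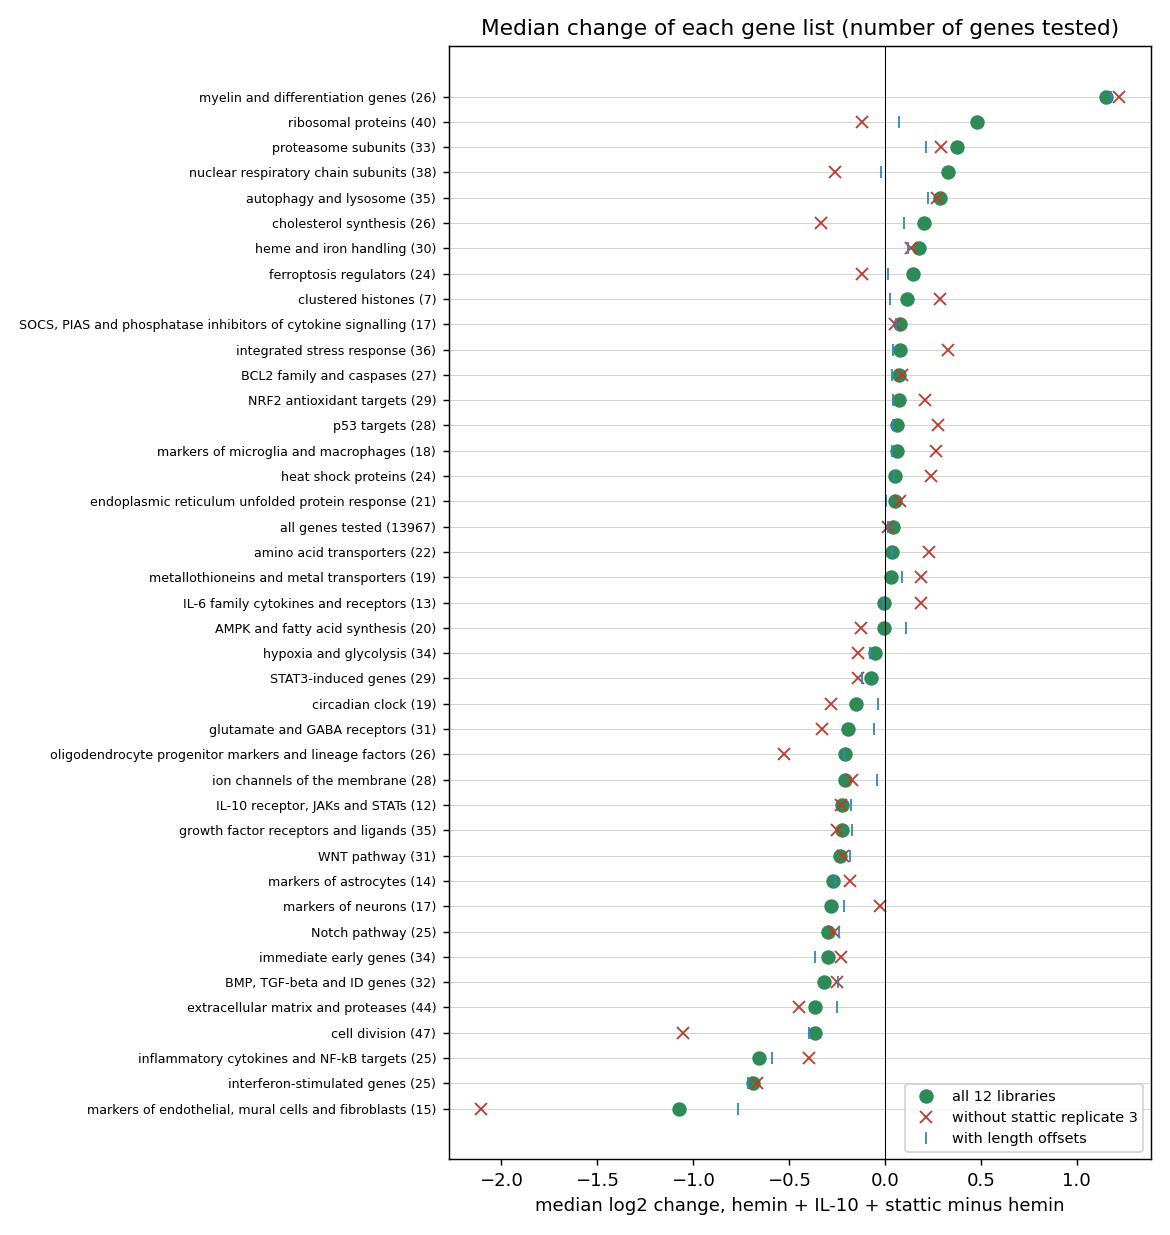
Median log2 change of each gene list and of all genes tested (horizontal axis), with the number of genes tested in brackets. Circles use all 12 libraries, crosses leave out stattic replicate 3 and bars add length offsets. Myelin genes lie highest at 1.15 and vascular and fibroblast markers lowest at -1.07, and the ribosomal and respiratory chain medians change sign without stattic replicate 3.

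Inflammatory cytokines and NF-kB targets had a median of -0.66 over 25 genes. With higher values 0 of the 25 had an unadjusted p under 0.05, beside 1.81% of all genes. With lower values 5 did, beside 1.63% of all genes. They were Cxcl1, Cxcl2 and Ccl2, chemokines that draw in neutrophils and monocytes, and Nfkbiz and Nfkb1, which encode members of the NF-kB system. Cxcl1 had 9.12, 3.79 and 4.21 CPM with hemin and 0.943, 0.733 and 1.56 CPM with stattic, a log2 change of -2.40 (SE 0.72, adjusted p = 1.00). Ccl2 had 33.8, 8.81 and 4.41 CPM against 5.45, 3.25 and 1.92 CPM, with hemin replicate 1 far above the rest. Nfkbiz had 72.6, 102 and 133 CPM against 54.0, 62.5 and 76.1 CPM. The list's median was -1.01 without stattic replicate 1, -0.31 without hemin replicate 1, -0.40 without stattic replicate 3 and -0.17 without that library and hemin replicate 1. For hemin with IL-10 against hemin, a comparison that shares the hemin libraries, the list's median was -0.50.

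Interferon-stimulated genes had a median of -0.69 over 25 genes, with 3 at an unadjusted p under 0.05 and lower values (1.63% of all genes), Cxcl10, Ddx58 and Usp18. Cxcl10, a chemokine for T cells, had 24.1, 27.5 and 31.1 CPM with hemin and 6.92, 4.09 and 12.0 CPM with stattic without overlap, a log2 change of -1.85 (SE 0.51, adjusted p = 1.00). Ddx58, the RNA sensor RIG-I, had 17.6, 12.4 and 13.0 CPM against 9.12, 4.82 and 5.64 CPM. Usp18, an interferon feedback inhibitor, had 12.0, 2.46 and 0.902 CPM against 1.57, 0.943 and 1.44 CPM, with hemin replicate 1 far above the rest. The list's median was -0.67 without stattic replicate 3 but -0.13 without hemin replicate 1, the library with the highest microglial sum of the 6, and -0.07 without both. For hemin with IL-10 against hemin, which shares the hemin libraries, the list's median was -0.77. The part of microglia or macrophages in these values was not tested.

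Immediate early genes, which switch on within minutes of a stimulus, had a median of -0.30 over 34 genes. Fos, Egr3, Nr4a2 and Nr4a3 had an unadjusted p under 0.05 with lower values, 4 of the 34 beside 1.63% of all genes. Fos had 237, 377 and 503 CPM with hemin and 192, 182 and 243 CPM with stattic, beside 11.9 to 16.8 CPM in vehicle. Nr4a2 had 21.4, 22.1 and 25.6 CPM against 15.2, 17.0 and 12.8 CPM without overlap. Egr3 had 24.2, 41.2 and 89.3 CPM against 13.8, 29.2 and 16.1 CPM. All 4 were above each vehicle library in each stattic library.

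The Notch list, to which Dlk1 belongs, had a median of -0.30 over 25 genes. Besides Dlk1, 4 members had an unadjusted p under 0.05, all with lower values (1.63% of all genes), and the list's median was -0.12 without hemin replicate 3 and -0.18 without stattic replicate 2. Hes1, the Notch target repressor, had 15.5, 26.0 and 47.5 CPM with hemin and 10.3, 3.25 and 17.0 CPM with stattic, a log2 change of -1.54 (SE 0.54). Dll4, a Notch ligand, had 4.56, 6.25 and 5.51 CPM against 1.89, 2.09 and 3.48 CPM. Numb, an inhibitor of Notch, had 24.9, 29.5 and 38.0 CPM against 19.5, 17.8 and 17.8 CPM, and Maml2, a Notch co-activator, had 21.1, 31.8 and 67.6 CPM against 23.3, 17.8 and 14.8 CPM. Dll4 and Numb did not overlap between groups, and Hes1 and Maml2 did. In 4 of the 25 the stattic libraries all lay below the hemin libraries, where 2.25% of all genes did so. Hes5, another target, had 12.7, 17.6 and 58.4 CPM against 2.83, 2.30 and 22.7 CPM.

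Autophagy and lysosome genes had a median of 0.29 over 35 genes, 0.27 without stattic replicate 3, and their stattic medians against the hemin mean were 0.36, 0.36 and 0.20. In 6 of the 35 the stattic libraries all lay above the hemin libraries, where 2.91% of all genes did so. Map1lc3b, Gabarapl1, Becn1, Optn and Lamp1 are among them. Gabarapl1, an ATG8 protein of the autophagosome, had 269, 223 and 146 CPM with hemin and 336, 348 and 333 CPM with stattic, a log2 change of 0.68 (SE 0.27, adjusted p = 1.00). Proteasome subunits had a median of 0.38 over 33 genes, with 0.29 without stattic replicate 3 and 0.17 without hemin replicate 3. Psma2, Psmb2 and Psmc2 were higher in every stattic library, 3 of the 33 beside 2.91% of all genes. Of the 33, 0 had an unadjusted p under 0.05, where 1.81% of all genes did with higher and 1.63% with lower values.

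The medians of the ribosomal protein, respiratory chain and cholesterol synthesis lists changed sign without stattic replicate 3. The 40 ribosomal protein genes had a median of 0.48 and all 40 had fitted values above 0, but the median was -0.12 without that library and 0.07 with length offsets. Their median in stattic replicates 1 to 3 against the hemin mean was -0.34, 0.05 and 1.22. The 38 nuclear respiratory chain subunits had a median of 0.33, and of -0.26 without it. The 26 cholesterol synthesis genes, with longer transcripts, had 0.21 and -0.33. The cause of the length trend was not tested.

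Extracellular matrix and protease genes had a median of -0.36 over 44 genes, with 4 at an unadjusted p under 0.05 and lower values (1.63% of all genes), and the median was -0.10 without stattic replicate 2 and -0.12 without hemin replicate 1. Itgb8, an integrin subunit that activates TGF-beta, had 105, 93.5 and 114 CPM with hemin and 86.5, 66.0 and 53.9 CPM with stattic. Lama1, a laminin chain, had 65.6, 40.3 and 33.0 CPM against 15.7, 22.2 and 28.7 CPM. Col5a1 and Lama4, a collagen and a laminin chain, had changes of -0.63 (SE 0.24) and -1.23 (SE 0.47). The endothelial, mural cell and fibroblast markers had the lowest median of all lists, -1.07 over 15 genes, -2.11 without stattic replicate 3 and -0.22 without hemin replicate 1. Of these Dcn, the matrix proteoglycan decorin, had 22.5, 2.56 and 2.70 CPM against 1.68, 1.99 and 2.52 CPM, with hemin replicate 1 far above the rest. The part of fibroblasts in the matrix values was not tested.

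Among the remaining lists, 3 clock genes had an unadjusted p under 0.05 with lower values, Nr1d2, Rora and Hlf, 3 of 19 beside 1.63% of all genes. The clock list's median was -0.15, and 0.08 without hemin replicate 3. Nr1d2, the heme-binding repressor REV-ERB beta, had 37.3, 43.0 and 59.1 CPM with hemin and 37.0, 23.8 and 24.2 CPM with stattic, a log2 change of -0.71 (SE 0.25). Kcna6, a voltage-gated potassium channel, had 5.95, 8.10 and 11.6 CPM against 15.2, 19.5 and 14.9 CPM, a change of 0.95 (SE 0.28) in a gene that averaged 70.5 CPM in vehicle. Slc6a8, the creatine transporter, had 76.4, 70.0 and 68.6 CPM against 112, 122 and 94.0 CPM. Kcna6 and Slc6a8 did not overlap between groups. The medians were -0.32 over 32 BMP, TGF-beta and ID genes, -0.23 over 31 WNT genes, -0.22 over 35 growth factor receptors and ligands, -0.19 over 31 glutamate and GABA receptors and -0.21 over 28 ion channels. They were -0.01 over 20 genes of AMPK and fatty acid synthesis, -0.05 over 34 hypoxia and glycolysis genes, 0.06 over 28 p53 targets, 0.08 over 27 BCL2 family and caspase genes, 0.05 over 21 genes of the unfolded protein response, 0.03 over 19 metallothioneins and metal transporters and 0.04 over 22 amino acid transporters. In each of these lists 0 or 1 gene had an unadjusted p under 0.05 in each direction. Over all genes 1.81% did with higher and 1.63% with lower values. With 1 library left out the p53 median ran from -0.36 to 0.28, the metallothionein median from -0.17 to 0.19, the amino acid transporter median from -0.27 to 0.23, the WNT median from -0.41 to -0.041 and the growth factor median from -0.58 to -0.036. The medians of the astrocyte, neuron and microglia marker lists were -0.27, -0.28 and 0.06, with 0 genes at an unadjusted p under 0.05. Without stattic replicate 3 they were -0.18, -0.024 and 0.27, and without stattic replicate 2 they were 0.09, -0.44 and -0.35. The AMPK list's gene was Dlk1 itself, placed there from knowledge of the study.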

How the data were processed

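Total RNA was sequenced from 12 DNA nanoball libraries whose second strand carried dUTP, per the labels' protocols. The tools in the submitters' processing notes are Bowtie, Bowtie2, CASAVA, Cufflinks, HISAT, RSEM, StringTie and TopHat, without version, role or order. For genome build and use of strand in counting, both not given in the sources used here, nothing was assumed, and reads of overlapping or antisense genes could not be told apart. Per the file headers, the authors deposited for each gene an FPKM value and an expected count, which is an estimate of its reads and is not normalised. Genes missing from a file counted as 0, and 99.1% of symbols matched the RefSeq table.

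Expected counts were rounded and tested with edgeR 4.0.16 (R 4.3.3): filterByExpr, TMM factors, and a robust quasi-likelihood fit of all 12 libraries with 1 mean per group and no block. CPM are TMM-scaled, except marker sums and the single markers given beside them. Alternatives used DESeq2 1.42.0, limma 3.58.1, other scalings and filters, length offsets, the replicate block and left-out libraries. The code was tested on simulated data. Where no gene was called, the 8 smallest p in each direction were named, with Socs3, Stat3, Il10ra, Il10rb, Jak1, Hmox1, Slc7a11, Olig2 and Dlk1 always named. Some genes are not reported here. The members, the 40 gene lists and these rules were chosen with earlier results of these data known.

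The labels number the replicates without stating what links equal numbers. Deviations of same-numbered hemin and stattic libraries from their group means correlated across genes at 0.35, 0.39 and 0.17 for replicates 1, 2 and 3. All were above 0.1, the threshold set for treating the numbers as paired. Some differently numbered libraries passed it too. Hemin replicate 3 correlated at 0.29 with stattic replicate 2, hemin 2 at 0.17 with stattic 1 and hemin 1 at 0.11 with stattic 3. The other pairs lay between -0.51 and -0.46. The pairing is thus uncertain, the main fit did not use it, and the block is given as an alternative.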

Additional observations from a re-analysis of the deposited data

How the results depend on the processing

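Over 19 alternatives the count of genes called lower was 0 in each, and the count called higher was 0 or 1. It was 1 without a filter on low counts, with DESeq2, with the replicate block, and with length offsets together with the replicate block. With 1 library left out it ran from 0 to 1, and it was 1 without stattic replicate 1. The gene was Dlk1 each time. With the replicate block the count called lower was 0, and the block changed no other call. Genes with an unadjusted p under 0.05 numbered 193 (only the 6 libraries) to 1376 (without stattic replicate 1), so this count depends on single libraries. Of 452 values of the 24 named genes, 21 changed sign, all in 7 genes of which none was called in any alternative, and the cause was not tested. With 1 library left out, the log2 change of Stat3 ran from -0.39 to 0.012, the log2 change of Il10ra from -0.71 to 0.43, the log2 change of Il10rb from -0.33 to 0.097, the log2 change of Hmox1 from -0.81 to 0.31, the log2 change of Slc7a11 from -1.25 to 0.79 and the log2 change of Olig2 from -0.64 to 0.31. The values above 0 came without hemin replicate 3 for Stat3 (0.012), without hemin replicate 1 for Il10ra (0.43) and Il10rb (0.097), without hemin replicate 1 (0.31), hemin replicate 2 (0.021), stattic replicate 2 (0.19) or stattic replicate 3 (0.25) for Hmox1, and without hemin replicate 1 (0.31) or stattic replicate 2 (0.14) for Olig2. Slc7a11 was below 0 without hemin replicate 3 (-0.24) or stattic replicate 1 (-1.25). Without hemin replicate 1 and stattic replicate 3 together, Il10ra was 0.53, Il10rb 0.084, Hmox1 0.61 and Olig2 0.20, and the log2 change of Jak1 was 0.050. With limma-voom, Il10ra was 0.039 and Slc7a11 -0.11. On log2(FPKM + 1) Slc7a11 was -0.21, on log2(FPKM + 0.1) it was -0.23, and with the replicate block on the 6 libraries it was -0.13. Of 760 list medians under alternatives, 46 moved by more than the SD over the stattic libraries. Without stattic replicate 3, 5 list medians changed sign, and with length offsets 2 did.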

Other observations

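The most abundant genes of the 6 libraries did not separate the groups. Over all genes tested, 2.91% separated them with higher and 2.25% with lower values. Col19a1, a collagen gene with the most counts, had 18600, 19779 and 21019 CPM with hemin and 13413, 15661 and 27851 CPM with stattic, a log2 change of -0.06 (95% CI -0.76 to 0.64). Hspa8, the constitutive HSP70 chaperone, had 8024, 8474 and 5372 CPM against 11178, 9038 and 7586 CPM, a change of 0.35 (95% CI -0.30 to 1.00). Eef1a1, the translation elongation factor, had 10910, 7967 and 7328 CPM against 8853, 8156 and 15110 CPM.

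Dlk1 lies in an imprinted cluster, and the nearest genes in the RefSeq order that the libraries listed were looked up after its value was seen. In that order Begain lay 3 places before Dlk1, Rtl1 lay 6 after it and Dio3 lay 102 after it. Rtl1, a retrotransposon-derived gene of the same cluster, had 60, 86 and 58 expected counts with hemin and 69, 179 and 49 with stattic, a log2 change of 0.63 (95% CI -0.43 to 1.69). Begain, on the other side, had 80, 51 and 78 against 65, 101 and 87 counts, a change of 0.41 (95% CI -0.36 to 1.18). Wdr25 and Wars had changes of 0.26 and 0.04. Dio3, a deiodinase gene of the cluster, had 0 to 2 counts in each of the 12 libraries and was not tested. In the main test no neighbour was called, as was so for all 13967 genes tested, Dlk1 included. Dlk1 had 89, 69 and 58 against 381, 908 and 657 counts in the same libraries.

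A few genes had counts in every library of 1 group and none in the other, at levels too low to be tested with weight. Tnni3k, a cardiac kinase, had 0 counts in the 3 hemin libraries and 4, 8 and 3 in the stattic libraries. Adrb3, Sp5 and Zfp872 had 0 in the 3 stattic libraries and 3 or 4 in each hemin library. Rps27rt, a near-identical copy of a ribosomal protein gene and so uncertain in its counts, falls outside this pattern. It had 0, 6.05 and 6.11 CPM with hemin and 0 in the 3 stattic libraries, so hemin replicate 1 also had none.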
